A study of Rattus norvegicus with 10 samples.

Results

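The genes described here encode enzymes of cholesterol synthesis and Insig1, a protein of the endoplasmic reticulum that senses sterols. Of the 8 genes chosen (Hmgcs1, Sqle, Idi1, Fdps, Fdft1, Lss, Cyp51 and Insig1), 7 had probe sets that the annotation of the array assigns to that gene alone, and these numbered 11 of 31042 probe sets (14217 genes have such a set). Hmgcs1 had no probe set under its name in the annotation used here and was not analysed. None of the 8 is an uptake receptor, so uptake is covered only by the wider list of pathway genes below. Hypothalamic RNA came from 10 male Wistar rats, with 1 Affymetrix rat array per animal. From 3 weeks of age all rats were first acclimatized to powdered feed. The C group (5 rats, Chow 1 to Chow 5) was then fed solid chow for 8 days, and the P group (5 rats, Powder 1 to Powder 5) powdered feed for the same 8 days. All were 4 weeks old by the labels, which name no other treatment. The comparison asks whether chewing solid feed changes the hypothalamic transcriptome.

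Animal cells make cholesterol from acetyl-CoA through mevalonate, the isoprenoids farnesyl diphosphate and squalene, and the first sterol, lanosterol. The transcription factor SREBP2 switches on the genes of nearly every step when membranes of the endoplasmic reticulum are low in sterol, while INSIG proteins hold SREBP2 and its escort SCAP back when sterol is plentiful. The brain makes its own cholesterol because lipoproteins of the blood do not cross the blood-brain barrier, and much of it goes into myelin, which oligodendrocytes lay down in the weeks around weaning.

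SREBP2 acts at sterol elements that lie close to sites for the cofactors NF-Y (CCAAT box) and Sp1 (GC box). The windows from 250 bases before to 50 bases after the gene start are given for 4 genes, as these genes moved together from rat to rat (below) and differ in the motifs they hold. They are printed 5′ to 3′ on the strand of the gene, from RefSeq on build GRCr8. Capitals mark CCAAT on either strand (ATTGG on the reverse) and the short sterol motif CACNCCAC on either strand (GTGGNGTG on the reverse), and no such pair overlaps here.
Idi1 (chr17:66547475-66547774, minus strand): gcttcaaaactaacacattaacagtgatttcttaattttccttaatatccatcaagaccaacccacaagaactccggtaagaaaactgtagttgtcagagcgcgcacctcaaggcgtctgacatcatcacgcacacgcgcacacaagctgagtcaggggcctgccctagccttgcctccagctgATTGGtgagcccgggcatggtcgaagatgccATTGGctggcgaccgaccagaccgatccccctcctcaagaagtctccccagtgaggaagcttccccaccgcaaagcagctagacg
Fdps (chr2:176804767-176805066, minus strand): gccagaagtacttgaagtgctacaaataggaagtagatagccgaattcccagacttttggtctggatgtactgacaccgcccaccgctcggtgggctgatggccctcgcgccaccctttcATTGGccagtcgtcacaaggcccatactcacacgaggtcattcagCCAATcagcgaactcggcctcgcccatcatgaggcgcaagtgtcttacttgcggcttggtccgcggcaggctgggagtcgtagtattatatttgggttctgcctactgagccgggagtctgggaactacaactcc
Insig1 (chr4:8057720-8058019, minus strand): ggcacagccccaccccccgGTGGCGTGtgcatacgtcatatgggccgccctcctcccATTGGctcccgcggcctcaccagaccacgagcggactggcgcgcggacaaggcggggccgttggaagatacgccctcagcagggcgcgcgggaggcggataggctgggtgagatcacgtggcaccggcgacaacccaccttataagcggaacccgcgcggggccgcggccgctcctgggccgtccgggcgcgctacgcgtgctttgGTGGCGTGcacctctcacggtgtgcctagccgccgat
Cyp51 (chr4:30991443-30991742, plus strand): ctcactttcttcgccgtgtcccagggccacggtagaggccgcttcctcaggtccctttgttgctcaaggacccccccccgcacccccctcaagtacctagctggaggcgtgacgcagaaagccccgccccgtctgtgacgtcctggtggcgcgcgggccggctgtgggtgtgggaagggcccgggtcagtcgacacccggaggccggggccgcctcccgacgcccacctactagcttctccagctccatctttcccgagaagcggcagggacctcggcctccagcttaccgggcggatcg
Idi1 holds 2 CCAAT boxes, both on the reverse strand and ending 62 and 31 bases before the start. Fdps also holds 2, one on each strand, at 126 and 81 bases before it. Insig1 holds 1 CCAAT box and 2 matches of the short sterol motif, and Cyp51 holds neither. Windows were given for 6 of the 8 genes, and Sqle and Fdft1 had no entry. A CCAAT box was present in 5 of those 6 (83.3%), against 37.5% of all 33469 windows of the same length. The GC box GGGCGG was present in 5 of 6 (33.1% of all windows), CACNCCAC in 1 of 6 (5.8%), and the longer form TCACNCCAC in 0 of 6 (1.12%). These are matches of letters only, and binding was not measured.

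The 7 measured genes rose and fell together between rats of the same diet, and the mean of the 2 diets was nearly the same for each. On the deposited values, Chow 5 was the lowest rat of the C group and Powder 1 the lowest of the P group in 7 of 7 genes. Chow 2 was highest of the C group in 6 genes and Chow 4 in 1, while Powder 4 was highest of the P group in 4 genes and Powder 3 in 3. Between the lowest and the highest rat of a diet the log2 signal of the 9 varying probe sets spanned 0.26 to 0.50 in the C group (1.20-fold to 1.42-fold) and 0.15 to 0.42 in the P group (1.11-fold to 1.34-fold). The values are log2 signals after the factor analysis of the authors, which leaves a probe set almost flat where its probes share no signal. Of the 11 probe sets, 7 had a standard deviation (SD) above 0.1 over the 10 rats, 2 had one between 0.05 and 0.1, and 2 were flat, with an SD below 0.001. Over the whole array, 92.6% of probe sets were flat in this sense and 4.48% had an SD above 0.1. The flat sets belong to Fdft1 (1389906_at) and Lss (1368086_a_at), whose other sets varied, and they hold no measure of a difference. Each gene was represented by its probe set with the largest SD unless another is named. Markers of leptomeningeal fibroblasts were highest in Chow 1 and Chow 4, on average 0.81 and 0.68 above the mean of all arrays, against -0.74 to 0.43 in the other rats, so values without these 2 rats are given for the covariation. As a check of the tissue, 11 of 12 markers of hypothalamic neurons had a probe set, and their mean log2 level was at least 9.69 in each rat. The level differed widely between these markers, from 6.75 for Pomc, whose set was flat, to 12.97 for Pmch.

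**Figure D1:**
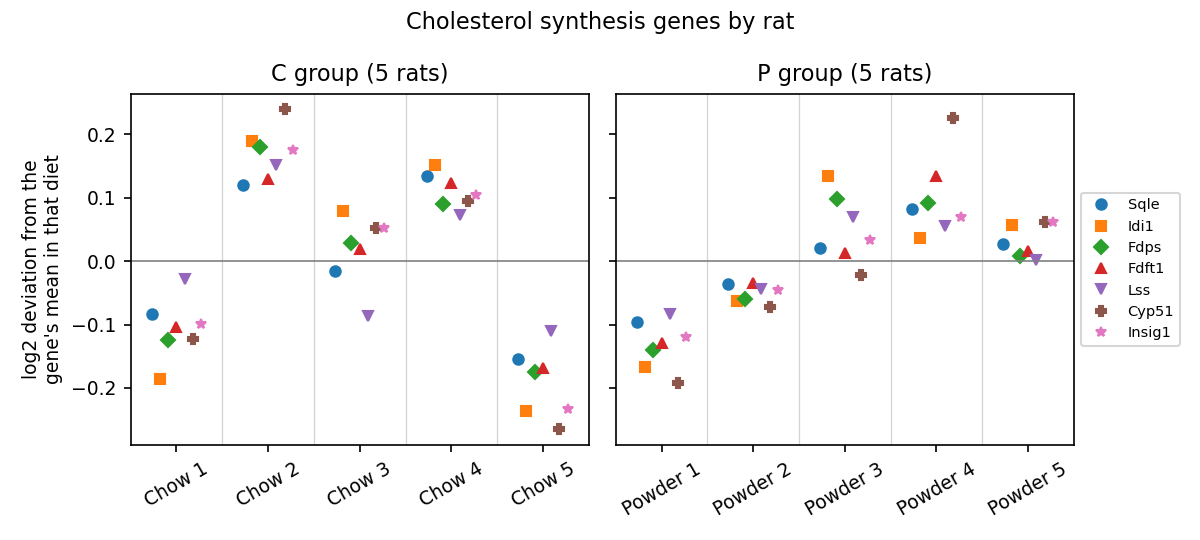
Log2 signal of the 7 genes in each rat, as the deviation from the mean of that gene in the same diet (5 rats per group; points of one rat are set side by side). All 7 points of Chow 5, Chow 1, Powder 1 and Powder 2 lie below 0, and those of Chow 2 and Chow 4 above it.

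Idi1 isomerizes isopentenyl diphosphate, the first isoprenoid unit. It read 10.18, 10.56, 10.45, 10.52 and 10.13 in Chow 1 to Chow 5 and 10.22, 10.32, 10.52, 10.42 and 10.44 in Powder 1 to Powder 5. Chow 1 and Chow 5 were the lowest of all 10 rats, and the groups overlapped over almost the whole range. Its second probe set (1388872_at) ran in parallel, from 8.99 in Chow 5 to 9.41 in Chow 2 and Chow 4 and from 9.14 in Powder 1 to 9.34 in Powder 3 and Powder 4. Fdps, which joins isoprenoid units to farnesyl diphosphate, read 10.85, 11.16, 11.01, 11.07 and 10.80 in the C group and 10.80, 10.88, 11.04, 11.03 and 10.95 in the P group. The low rats were again Chow 1, Chow 5, Powder 1 and Powder 2.

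Fdft1, the squalene synthase that commits farnesyl diphosphate to sterols, read 9.98, 10.22, 10.11, 10.21 and 9.92 in Chow 1 to Chow 5 and 9.97, 10.06, 10.11, 10.23 and 10.12 in Powder 1 to Powder 5. Sqle, the squalene epoxidase and a rate-limiting step of the later pathway, read 10.20, 10.41, 10.27, 10.42 and 10.13 in the C group and 10.18, 10.24, 10.30, 10.36 and 10.30 in the P group. In both genes Chow 2 and Chow 4 lay about level at the top of the C group and Powder 4 stood highest in the P group. Lss, which closes squalene epoxide into lanosterol, varied least. It read 8.77, 8.94, 8.71, 8.87 and 8.68 in the C group and 8.69, 8.73, 8.84, 8.83 and 8.77 in the P group. Chow 3 was near the low end of the C group in Lss, at 8.71, and in the middle of it in the other genes.

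Cyp51, the lanosterol demethylase, had the widest spread. Its probe set 1387020_at read 9.11, 9.47, 9.28, 9.33 and 8.97 in Chow 1 to Chow 5 and 8.98, 9.10, 9.15, 9.40 and 9.24 in Powder 1 to Powder 5. The second set, 1367979_s_at, whose suffix marks probes that can match more than one transcript, read 11.20, 11.26, 11.27, 11.31 and 11.01 in the C group and 11.06, 11.22, 11.33, 11.21 and 11.27 in the P group. Both sets put Chow 5 and Powder 1 lowest, but the highest P rat was Powder 4 in one and Powder 3 in the other. Insig1 is no enzyme but a target of SREBP2 that restrains it, so its transcript is a common readout of SREBP activity. It read 10.40, 10.67, 10.55, 10.60 and 10.27 in the C group and 10.38, 10.46, 10.53, 10.57 and 10.56 in the P group, in nearly the same order of rats as the enzymes.

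Diet left no difference beyond the spread between rats. Cyp51 (1387020_at) differed most, by 0.05 on the log2 scale (C minus P, standard error 0.11, 5 rats per group, 95% interval -0.19 to 0.30). Fdps differed by 0.04 (interval -0.14 to 0.21), Lss by 0.02 (-0.10 to 0.15), Sqle by 0.01 (-0.13 to 0.15), Idi1 (1368878_at) by -0.02 (-0.24 to 0.21), Fdft1 by -0.01 (-0.17 to 0.15) and Insig1 by -0.0013 (-0.18 to 0.18). Over the 9 varying probe sets 4 differences were above 0 and 5 below. Their median size was 0.012, against 0.049 over all 1952 probe sets with an SD above 0.05. The widest bounds of the intervals correspond to 0.845-fold (Idi1, 1368878_at) and 1.23-fold (Cyp51, 1387020_at). With 5 rats per group, a difference inside the interval of a probe set is therefore not excluded for that set. The exact permutation p (two-sided, all 252 assignments of 5 against 5 rats) lay between 0.627 and 1 for the 9 sets, where the smallest possible is 0.00794.

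Rank products, the test of the study, called 0 of the 11 probe sets at a false discovery rate below 0.05, where it called 1.73% of all 31042 (0.947% higher and 0.792% lower in the C group). The lowest rate among the 9 varying sets was 0.112, for Cyp51 (1387020_at). Without Chow 5 and without Powder 4, rank products called 1 of the 11, the same Cyp51 set, as higher in the C group. By limma 0 of the 11 passed after adjustment over all probe sets, and 0 had an unadjusted p below 0.05 (lowest 0.633). Limma called 0% of the whole array, with 3.54% at an unadjusted p below 0.05. Groups did not overlap in 0 of the 11 sets, and in 0.432% of all sets.

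**Figure D2:**
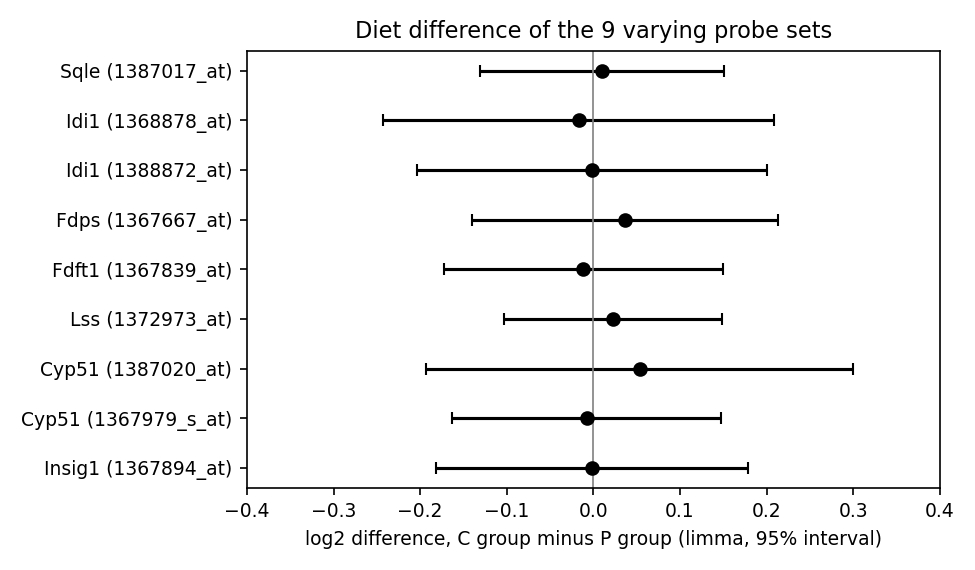
Difference of the C group minus the P group in log2 units for the 9 varying probe sets (points) with the 95% interval of limma (bars, 5 rats per group). All 9 intervals span 0, and the points lie between -0.02 and 0.05.

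Within the diets, deviations from the diet mean were compared between genes over the 10 rats, as 5 rats of 1 diet are too few for a correlation of their own. Between the 5 genes with an SD above 0.1 (Idi1, Fdps, Fdft1, Cyp51 and Insig1) Pearson's r lay between 0.85 and 0.97 in 10 pairs, with a median of 0.95. All 10 exceeded 0.8, which 8.57% of the 405450 pairs of the 901 genes with an SD above 0.1 did (median r 0.12 over all those pairs). Adding Sqle and Lss gave 21 pairs with r between 0.79 and 0.98. Fdft1 and Sqle, neighbors in the pathway, had the highest r at 0.977 (Spearman's rho 0.915). Idi1 and Fdps, which also follow each other, had 0.965 (rho 0.891), while the 6 pairs of Lss had values of 0.79 to 0.88, the lowest being that with Idi1. The exact permutation p, from all 14400 reorderings of rats within their diets, was 6.94e-05, the smallest possible, for the pairs of Fdft1 with Cyp51, Fdft1 with Insig1 and Cyp51 with Insig1. After Benjamini-Hochberg adjustment over the 21 pairs, Pearson's r passed in 21 (exact permutation, adjusted p 0.000486 to 0.0309) and Spearman's rho in 19 (0.000486 to 0.0596). The exceptions were the pairs of Lss with Idi1 (rho 0.770) and with Fdft1 (rho 0.697). As the genes were chosen with earlier results of these data known, these p describe the 10 rats and are no independent test. Leaving out the 2 rats farthest from the median of the first gene of a pair, of which Chow 5 was one in all 21 pairs, gave r between 0.60 and 0.97 over the remaining 8 rats.

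**Figure D3:**
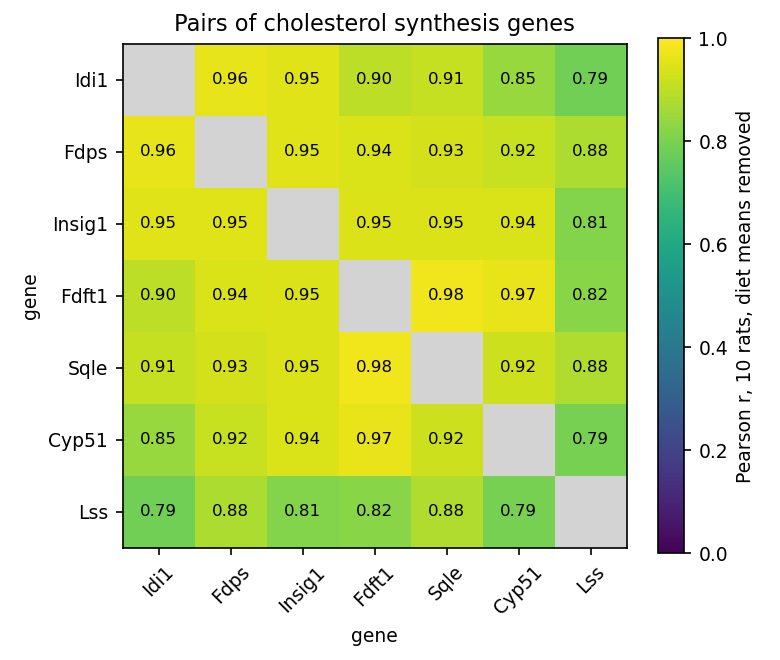
Pearson's r between the 7 genes over 10 rats after removal of the diet means, as color and number (diagonal in grey). The values run from 0.79 to 0.98, and the row of Lss is the lowest on average.

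Probe sets of one gene can be set against these values. The 2 sets of Idi1 had r = 0.961 (rho 0.915, exact permutation p = 0.000556 and 0.00403, 10 rats), and those of Cyp51 r = 0.706 (rho 0.600, exact permutation p = 0.0375 and 0.104). Without Chow 1 and Chow 5, r was 0.933 for Idi1, and without Chow 2 and Chow 5 it was 0.574 for Cyp51. Cyp51 (1387020_at) therefore followed Fdft1 (r = 0.968) more closely than its own second set, a comparison of values that was not tested.

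The rest of the synthesis pathway followed the same rats. Probe sets of their own were analysed for 11 further synthesis genes. In 7 of the 11 the SD exceeded 0.05. Their r with the mean deviation of the 5 genes above lay between 0.87 and 0.98 (10 rats, median 0.93). On the deposited values Chow 5 was lowest of the C group in 7 of 7 and Powder 1 lowest of the P group in 6 of 7. The array medians given above were lowest in the same rats, and the share of all varying genes lowest in them was not computed. For comparison, 19.9% of the 896 other varying genes had an r above 0.8 with that mean. Acat2, which joins acetyl-CoA units at the head of the pathway, read 9.72 in Chow 5 to 10.02 in Chow 2 and 9.80 in Powder 1 to 10.01 in Powder 4 (r = 0.979). Dhcr7, the last reductase before cholesterol, spanned 9.18 to 9.56 in the C group and 9.18 to 9.59 in the P group (r = 0.872), and Hsd17b7, which removes a keto group from the sterol ring, 8.09 to 8.51 and 8.18 to 8.43 (r = 0.931). Of these 11 genes rank products called 1 higher in the C group and 0 lower (0.947% and 0.792% of all probe sets, most of which were flat). It was Tm7sf2, a sterol reductase, at 8.72, 9.12, 8.98, 8.90 and 8.56 in Chow 1 to Chow 5 and 8.45, 8.74, 8.94, 8.88 and 8.84 in Powder 1 to Powder 5. Its difference was 0.08 (standard error 0.13, false discovery rate 0.0487, exact permutation p = 0.548), with 3 of 5 C rats above the P mean and the groups overlapping. The call was lost without Chow 2, Chow 3, Chow 4, Powder 1 or Powder 2, where the difference lay between 0.0031 and 0.08. It was also lost after quantile normalization, under the filters on SD or mean, without both Chow 1 and Chow 4, and by limma. The median difference over the 7 genes with an SD above 0.05 was -0.01, against 0.02 over all 1952 probe sets with such an SD.

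Genes that control SREBP could not be read. All 6 of them (Srebf2 and Srebf1, which encode the factors, Scap, Insig2, and the proteases Mbtps1 and Mbtps2) had only flat probe sets, with an SD of at most 0.00023, and 0 were called. In the list of uptake and intracellular transport, 5 genes were analysed. Vldlr, a lipoprotein receptor, was the only one of the 5 to vary. It read 8.60, 8.65, 8.76, 8.79 and 8.45 in the C group and 8.55, 8.56, 8.72, 8.71 and 8.60 in the P group (r = 0.80), and 0 of the 5 genes were called. Among 9 genes of efflux, storage and turnover, 1 was called higher and 0 lower (0.947% and 0.792% of all probe sets, most of which were flat). This was Lcat, which esterifies cholesterol on lipoproteins, at 9.34, 8.59, 8.63, 8.70 and 8.97 in Chow 1 to Chow 5 and 8.40, 8.55, 8.78, 8.71 and 8.61 in Powder 1 to Powder 5 (difference 0.24, standard error 0.15, false discovery rate 0.0111, exact permutation p = 0.183). In the C group it was highest in Chow 1 and Chow 5, where the mean of the synthesis genes was lowest. In the P group it was lowest in Powder 1 and Powder 2, where that mean was lowest too. Its r with the synthesis genes over both groups, diet means removed, was -0.40. Without Chow 1 the difference was 0.12 and the call was lost, as it was without Chow 5 (0.21) or Powder 1 (0.19). It was also lost without both Chow 1 and Chow 4 (0.12), under the filter on SD and with the replicate block. Apoe, the lipoprotein of astrocytes, spanned 12.85 to 13.01 over all rats (r = -0.08) and was not called.

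Fatty acid synthesis genes, many of which answer to the related factor SREBP1, followed the pattern in part. Of 7 genes 0 were called, and 4 had an SD above 0.05. Elovl6, a fatty acid elongase, read 8.43, 8.72, 8.66, 8.66 and 8.25 in the C group and 8.57, 8.58, 8.64, 8.67 and 8.57 in the P group (1394401_at, r = 0.895). Scd, the desaturase that makes oleic acid, was lowest in Chow 5 at 8.27 and in Powder 1 at 8.23, but Chow 1 was the highest C rat at 8.65 (r = 0.641). In the cholesterol genes Chow 1 lay below the C mean, by 0.03 in Lss, where it was the middle rat, and by 0.08 to 0.19 in the others.

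Markers of oligodendrocytes rose and fell in the same rats as the cholesterol genes. Of this list 11 markers were analysed, each with a probe set of its own, and all 11 varied. Their mean stood 0.26 and 0.29 above the average of the arrays in Chow 2 and Chow 4 and at -0.24 in Chow 5, -0.12 in Chow 1 and -0.05 in Chow 3. In the P group it stood at -0.20, -0.15, 0.13, 0.09 and 0.00 in Powder 1 to Powder 5. Mbp, the basic protein of myelin, read 12.96, 13.15, 13.01, 13.18 and 12.88 in the C group and 12.89, 12.94, 13.11, 13.15 and 13.02 in the P group. Mog, a surface protein of myelin, spanned 10.72 in Chow 5 to 11.31 in Chow 4 and 10.82 in Powder 1 to 11.16 in Powder 3. The mean log2 level over the list, with the probe set of highest mean for each gene, ran from 11.38 to 11.85 in the C group and 11.45 to 11.70 in the P group, and the lowest marker averaged 9.50. In tissue RNA of this kind, fewer cells of a type and less RNA per cell cannot be told apart.

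For each of the 7 genes, r with the mean of the 11 markers lay between 0.83 (Cyp51) and 0.96 (Sqle), with rho between 0.84 and 0.96 (10 rats, diet means removed). Relations were computed for 7 genes against 5 marker lists, 35 in all. Genes and lists were chosen with earlier results of these data known, so the p that follow are no independent test. After Benjamini-Hochberg adjustment over the 35, Pearson's r with the oligodendrocyte markers passed for 7 of 7 genes (exact permutation p 0.000556 to 0.00875, adjusted 0.0182 to 0.0438) and rho for 6 of 7 (exact permutation p 0.000625 to 0.0101, adjusted 0.0219 to 0.0507). Leaving out the 2 rats farthest from the median of the gene gave r between 0.70 and 0.93. With the other 4 lists 0 of 28 passed: r lay between -0.19 and 0.23 for astrocytes, -0.06 and 0.29 for leptomeningeal fibroblasts, -0.34 and -0.08 for hypothalamic neurons, and -0.41 and -0.04 for cortical and hippocampal neurons (lowest exact permutation p = 0.299, adjusted 0.981). With the mean of the 11 markers removed by regression, which was chosen after seeing the data, r between the 5 genes with an SD above 0.1 fell to 0.38 to 0.92 in the 10 pairs (median 0.71). Over all 7 genes 17 of 21 pairs then stayed above 0, and the lowest was -0.42. The part of oligodendrocyte content in the covariation was not tested. Over the whole array, of which 92.6% was flat, rank products called 0.947% of probe sets higher in the C group and 0.792% lower. Of the 11 markers, each represented by its varying probe set of largest SD, it called 2 higher and 0 lower. These were Cldn11, a tight junction protein of myelin (difference 0.06, standard error 0.24), and Myrf, a transcription factor of myelination (0.11, standard error 0.11). Both calls were lost on leaving out any 1 of several rats. That of Cldn11 was lost, with the sign turned (-0.06 to -0.04), without Chow 2, Chow 4, Powder 1 or Powder 2, and that of Myrf was lost without Chow 1, Chow 2, Chow 3, Chow 4, Powder 1, Powder 2 or Powder 5 (differences of 0.05 to 0.14). Both were also lost under the filter on SD and without both Chow 1 and Chow 4, and that of Myrf after quantile normalization, under the filter on mean and with the replicate block.

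**Figure D4:**
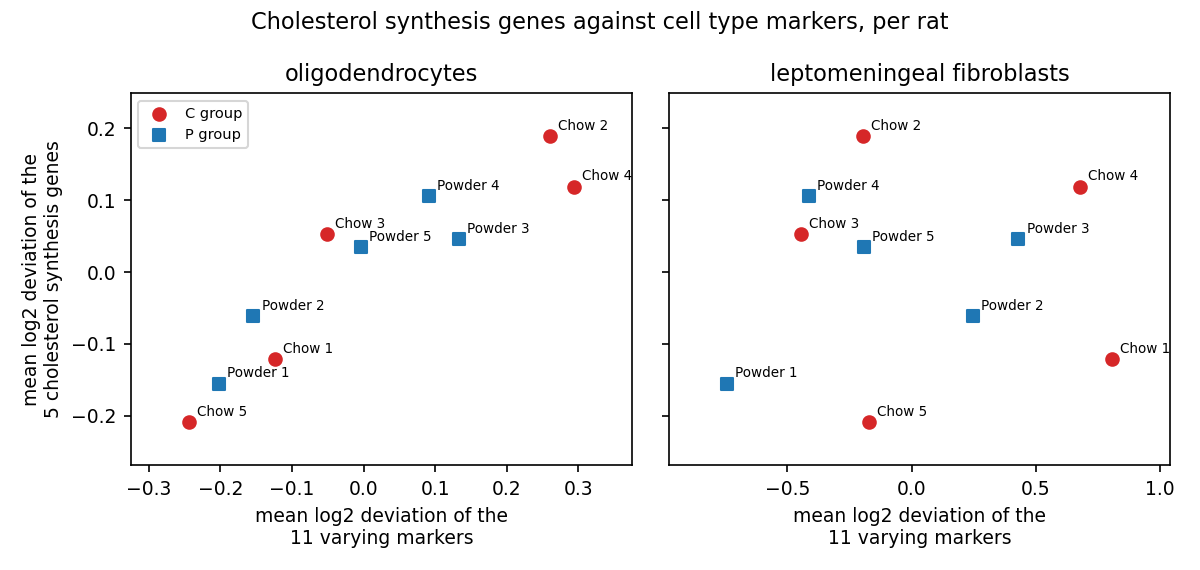
Mean log2 deviation of the 5 cholesterol synthesis genes with an SD above 0.1 in each rat (vertical axis) against that of the 11 varying markers of oligodendrocytes (left) or of leptomeningeal fibroblasts (right), each from its average over all arrays. On the left, rats of both diets rise from Chow 5 at the bottom to Chow 2 at the top. On the right, Chow 1, the rat highest in fibroblast markers at 0.81, stands with the rats low in cholesterol genes.

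Chow 1 and Chow 4, the rats highest in leptomeningeal markers, lay on opposite sides for cholesterol synthesis. Their mean deviations from the C mean over the 5 genes were -0.13 and 0.11. Without these 2 rats the median r of the 10 pairs was 0.943.

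The genes most like the 5 in their deviations, among 896 other genes with an SD above 0.1 and named as a description of these 10 rats, were Acat2 (r = 0.979), Tp53inp2 (0.975), St6galnac3 (0.974), Slc25a1 (0.974), Chn2 (0.972), Psd3 (0.968), Ppp1r16b (0.965) and S1pr5 (0.962). Slc25a1 carries citrate out of mitochondria, the source of acetyl-CoA for sterol and fatty acid synthesis. It read 9.37, 9.67, 9.55, 9.65 and 9.38 in Chow 1 to Chow 5 and 9.42, 9.50, 9.59, 9.67 and 9.56 in Powder 1 to Powder 5. S1pr5 is a sphingosine phosphate receptor of oligodendrocytes, and it ran from 8.48 in Chow 5 to 8.98 in Chow 4 and from 8.48 in Powder 1 to 8.85 in Powder 4. Of the 8 genes Chow 5 was the lowest C rat in 7 and Powder 1 the lowest P rat in 8, again with the array medians lowest in these rats. Their diet differences lay between -0.02 and 0.06, and 0 were called by rank products.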

How the data were processed

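Hypothalamic RNA of 10 rats was hybridized to 1 Affymetrix rat array each. The authors normalized the scans in R with factor analysis for robust microarray summarization, and the deposited values are log2 signals, which were not changed further. The array has 31099 probe sets. After removal of 57 control sets, a single gene was named for 20826, several for 436 and none for 9780. Sample identifiers tied the columns to the rats, with 0 left over. Arrays have no read depth, so the number of rats and the spread between them limit the precision.

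For rank products, the 25 C to P ratios were ranked and 100 shuffles of each array gave the false discovery rate, with a limit of 0.05 per direction. A Python 3.11.15 implementation was used (numpy 2.4.6, scipy 1.17.1, pandas 2.3.3; drawings by matplotlib 3.10.9). Differences, standard errors, intervals and adjusted p (Benjamini-Hochberg, all 31042 sets) came from limma 3.58.1 under R 4.3.3. Permutation tests of diet and of correlations within diets were exact. Both tests and the correlation test were tested on simulated data.

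The genes, the 5 pathway lists and the 11 marker lists were chosen with earlier results of these data known. Named were the chosen genes, pathway genes called or of largest SD in their list, the 8 genes most like them and the 4 most opposite. Same-numbered rats of the 2 diets were no pairs: their deviations over varying probe sets correlated between -0.33 and 0.28. Alternatives were limma, trended variances, quantile normalization, median centring, filters on SD or mean, a replicate block, a threshold of 0.01, omission of each rat in turn or of the pair Chow 1 and Chow 4, Spearman's rho, uncentred values and other choices of the probe set.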

Additional observations from a re-analysis of the deposited data

Results flagged for a closer look

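Itpr1, an intracellular calcium channel of neurons and one of the 4 genes most opposite to the cholesterol genes, read 9.43 in Powder 1, while the rest of the P group lay between 9.32 and 9.35. The gap made up 0.728 of the range of the P group, more than the limit for an outlier among 5 samples. It was 1 of 86 groups of 5 values examined, and chance flags about 1 in 20.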

How the results depend on the processing

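Rank products or limma called 0 of the cholesterol probe sets under each of the 10 alternatives that kept all rats or left out Chow 1 with Chow 4, and 0 to 1 when each rat was left out in turn (1 without Chow 5 and 1 without Powder 4). The median difference over the varying sets was -0.0013 and lay between -0.0310 and 0.0503 with 1 rat left out. Single differences near 0 changed sign. Median centring turned Sqle to -0.0240 and Lss to -0.0113, and leaving out Chow 1 and Chow 4 turned Sqle to -0.0070. With 1 rat left out the differences ran from -0.0236 to 0.0487 for Sqle, -0.0646 to 0.0419 and -0.0371 to 0.0665 for the sets of Idi1, -0.0088 to 0.0799 for Fdps, -0.0440 to 0.0304 for Fdft1, -0.0150 to 0.0503 for Lss, -0.0062 to 0.120 and -0.0481 to 0.0431 for the sets of Cyp51, and -0.0451 to 0.0569 for Insig1. For the 4 other genes called they ran from 0.0031 to 0.156 for Tm7sf2, 0.115 to 0.303 for Lcat, -0.0598 to 0.154 for Cldn11 and 0.0492 to 0.169 for Myrf, and rank products kept the call in 5, 7, 6 and 3 of the 10 omissions. The median r of 0.945 became 0.867 as Spearman's rho and 0.707 with the oligodendrocyte markers removed. With 1 rat left out it lay between 0.927 and 0.966, and under the other alternatives between 0.922 and 0.956. Median centring gave 0.936, and with the replicate block it was 0.926. Centring moved single arrays by up to 0.10, most in Chow 1, Chow 4, Chow 5 and Powder 1. The order of rats and the relation to the oligodendrocyte markers were not recomputed after it. None of the 7 cholesterol genes had an SD above 0.2, so that limit gave no value. Over the whole array rank products called 538 probe sets, against 0 by limma, 4 of the 1391 sets with an SD above 0.1, 215 of the 15521 sets of higher mean, 301 without Chow 1 and Chow 4, 205 at a false discovery rate below 0.01 and 294 to 537 with 1 rat left out. The replicate block gave 521. It changed no rank product call of the cholesterol genes, Tm7sf2 or Cldn11 and ended those of Lcat and Myrf. Limma and a false discovery rate below 0.01 ended all 4. Same-numbered rats did not pair, and 1 of 10 rats correlated best with its own number. Flat probe sets limit what can be said of genes such as Srebf2.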

Other observations

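Genes that ran opposite to the cholesterol genes between rats were Lrrc23 (r = -0.915 with the mean of the 5 genes, 10 rats, diet means removed), Col25a1 (-0.895), Itpr1 (-0.871) and Cpne5 (-0.868). Lrrc23, a leucine-rich repeat gene, read 8.86, 8.54, 8.80, 8.56 and 8.87 in Chow 1 to Chow 5 and 8.94, 8.81, 8.72, 8.68 and 8.66 in Powder 1 to Powder 5. Col25a1, a transmembrane collagen of neurons, was highest in Chow 5 at 10.27 and Powder 1 at 10.21, the rats in which Idi1 and Fdps were lowest within each diet. Of these 4 genes 0 were called between the diets.

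Precursors of oligodendrocytes were represented by 6 of 7 markers, of which only Bmp4 and Enpp6 varied. Their mean stood at 0.21 and 0.25 in Chow 2 and Chow 4, -0.20 in Chow 5 and -0.21 in Powder 1, from the average of the arrays. Of the endothelial markers 0 of 5 had an SD above 0.1, and of the microglial markers 1 of 5, C1qa, varied, with -0.59 in Chow 2 and -0.03 to 0.16 in the other rats. Erythrocyte markers stood at 0.33 in Chow 3 and at -0.24 to 0.07 in the other rats, and the pituitary markers Cga and Tshb at 2.11 in Chow 4 and 0.95 in Chow 5, against -0.47 to -0.31 in the others. The choroid plexus and ependyma markers Ttr and Rarres2 ran from -0.74 in Powder 4 to 0.89 in Chow 1.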
